A study of Homo sapiens with 5 samples.

Results

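Matrix metalloproteinases (MMP), the membrane-bound ADAM proteases, the secreted ADAMTS proteases and their tissue inhibitors (TIMP) were followed in COV434 cells given 3-nitropropanoic acid (3-NP) and in control cells. Members were the protein-coding genes of GENCODE 29 whose symbol is MMP, ADAM, ADAMTS or TIMP and then a digit, and they were found in the expression files by Ensembl ID. The rule gave 67 genes, of which 59 were among the 30631 genes of the files: 19 MMP, 17 ADAM, 19 ADAMTS and 4 TIMP genes. ADAM7, ADAM30, ADAM33, MMP8, MMP20, MMP21, MMP26 and MMP27 were not analysed here. MMP24OS met the rule by its symbol, but it is transcribed from the strand opposite to MMP24 and is not a protease. It was left out of sums over the MMP family and kept in the counts of genes unless stated.

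COV434 is a cell line that the labels call a granulosa tumour cell of the human ovary. The control group held 2 libraries of COV434 cells labelled control, and the 3-NP group held 3 libraries of COV434 cells with 3-nitropropanoic acid, which blocks succinate dehydrogenase in the mitochondrial respiratory chain. Dose, exposure time and culture details are not in the labels. Every title names COV434, whereas the fields for source and line run from COV434 to COV438, and the title was followed. No label states that the libraries are separate cultures, so the p-values cover the spread between these libraries, part of which may be technical. Cells were sequenced in bulk, and a lower share of cells that express a gene cannot be told apart from less RNA per cell.

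MMPs are zinc proteases that cut collagens and other matrix proteins, and most are made as inactive precursors. ADAMs sit in the cell membrane and release the outer parts of growth factors, cytokine receptors and adhesion proteins, while ADAMTS enzymes are secreted and cut proteoglycans and trim procollagens. TIMPs bind the active site of these enzymes, and TIMP3 also blocks several ADAM and ADAMTS proteases. In the ovary these genes take part in the opening of the follicle wall at ovulation, which in the mouse includes a rise of ADAMTS1 in granulosa cells.

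Levels are FPKM, reads scaled by gene length and library depth, and are listed for control replicates 1 and 2 and then for 3-NP replicates 1, 2 and 3. Means are given with SD over the 2 control and the 3 3-NP libraries. Depth worked out from the values was 17838000 to 18883000 reads per library. Correlations of log2(FPKM + 1) between libraries, taken over the 11858 genes tested, were r = 0.968 to 0.985 within the groups and 0.891 to 0.910 between them, which describes genes and not independent replicates. Of these genes, 15.5% were called higher and 25.2% lower in 3-NP libraries, where called means a Benjamini-Hochberg adjusted p of 0.05 or less from limma. The median change of all genes was -0.11 on the log2 scale, and lower calls made up 61.9% of all calls, against 50.5% after median-of-ratios scaling. The omission of control replicate 1 left 752 genes called higher and 1062 lower, and that of control replicate 2 left 909 and 1179.

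Granulosa markers were partly absent. CYP19A1, FSHR and WT1 had 0 reads in both controls, and 7 of the 15 markers had a mean of 1 FPKM or more. Of the 7 granulosa markers tested, 0 were called higher and 3 lower (FOXL2, INHBB and NR5A1). FOXL2, a transcription factor of granulosa cells, fell from 6.20 ± 0.99 to 2.51 ± 0.19 FPKM (limma adjusted p = 0.00236). The summed granulosa markers were 46.6 to 50.1 FPKM in control and 31.5 to 33.9 FPKM in 3-NP libraries. The 9 fibroblast and stromal markers summed to 937 to 939 FPKM in control and 174 to 362 FPKM in 3-NP libraries, most of it COL1A1 and COL1A2, the 2 of 7 tested that were called, both lower. The 7 epithelial markers summed to 402 to 483 and 47.6 to 108 FPKM, most of it KRT18 in the controls, and of the 3 tested KRT18 was called lower, CLDN4 higher and KRT8 not. The 6 endothelial markers summed to 5.51 to 7.29 and 2.64 to 4.44 FPKM, most of it TEK in the controls. Of the 2 tested, TEK was called lower and KDR higher. CLDN4 and KDR passed the filter through 3-NP libraries alone. The 5 leukocyte markers in the files summed to at most 0.529 FPKM, with LYZ at 0 in every library. The part of these shifts in the protease values was not tested.

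Of the 59 genes, 31 passed the filter of 1 FPKM in at least 2 libraries and were tested. In 3-NP libraries 11 were called higher and 6 lower, and 14 were not called, beside 15.5% and 25.2% of all genes tested. The genes called higher were MMP1, MMP3, MMP15, MMP17, MMP28, ADAM17, ADAMTS7, ADAMTS15, ADAMTS16, TIMP1 and TIMP3. Those called lower were MMP19, MMP24, ADAM12, ADAMTS5, ADAMTS10 and ADAMTS12. The 31 fitted log2 fold changes ran from -2.39 to 1.82 with a median of 0.11, beside -0.11 for all genes tested. That median is the value of MMP24OS, and without this gene the median of the 30 others was 0.06. Library values of the groups did not overlap for 13 genes that were higher and 9 that were lower, beside 25.8% and 38.4% of all genes tested. MMP1, MMP3, MMP16 and ADAMTS16 reached the filter through 3-NP libraries alone and ADAMTS5 through controls alone, so these counts describe the genes that passed and not the whole set. The counts also rested on both controls. With control replicate 1 left out they were 4 and 1, and with control replicate 2 left out 6 and 3.

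By family, 5 of the 12 MMP genes tested (11 without MMP24OS) were called higher and 2 lower. Of the 7 ADAM genes 1 was called higher and 1 lower. Of the 9 ADAMTS genes 3 were called higher and 3 lower, and of the 3 TIMP genes 2 were called higher. Each share is to be read beside the 15.5% higher and 25.2% lower of all genes tested. The ADAM shares, 14.3% in either direction, are 1 gene each and do not place that family above or below all genes. Of the 17 genes called, MMP1, MMP3 and ADAMTS16 passed the filter through 3-NP libraries alone and ADAMTS5 through controls alone. MMP2 supplied 72.3% to 78.2% of the summed MMP FPKM of a library, ADAM9 50.3% to 56.8% of the ADAM sum and ADAMTS1 49.2% to 63.8% of the ADAMTS sum, and none of these was called. The summed FPKM of a family in 3-NP libraries was 1.04 times the control mean for MMP genes, 0.881 times for ADAM, 0.859 times for ADAMTS and 1.41 times for TIMP genes. The MMP sum was below the control mean, at 0.967 times, with library totals set equal.

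**Figure D1:**
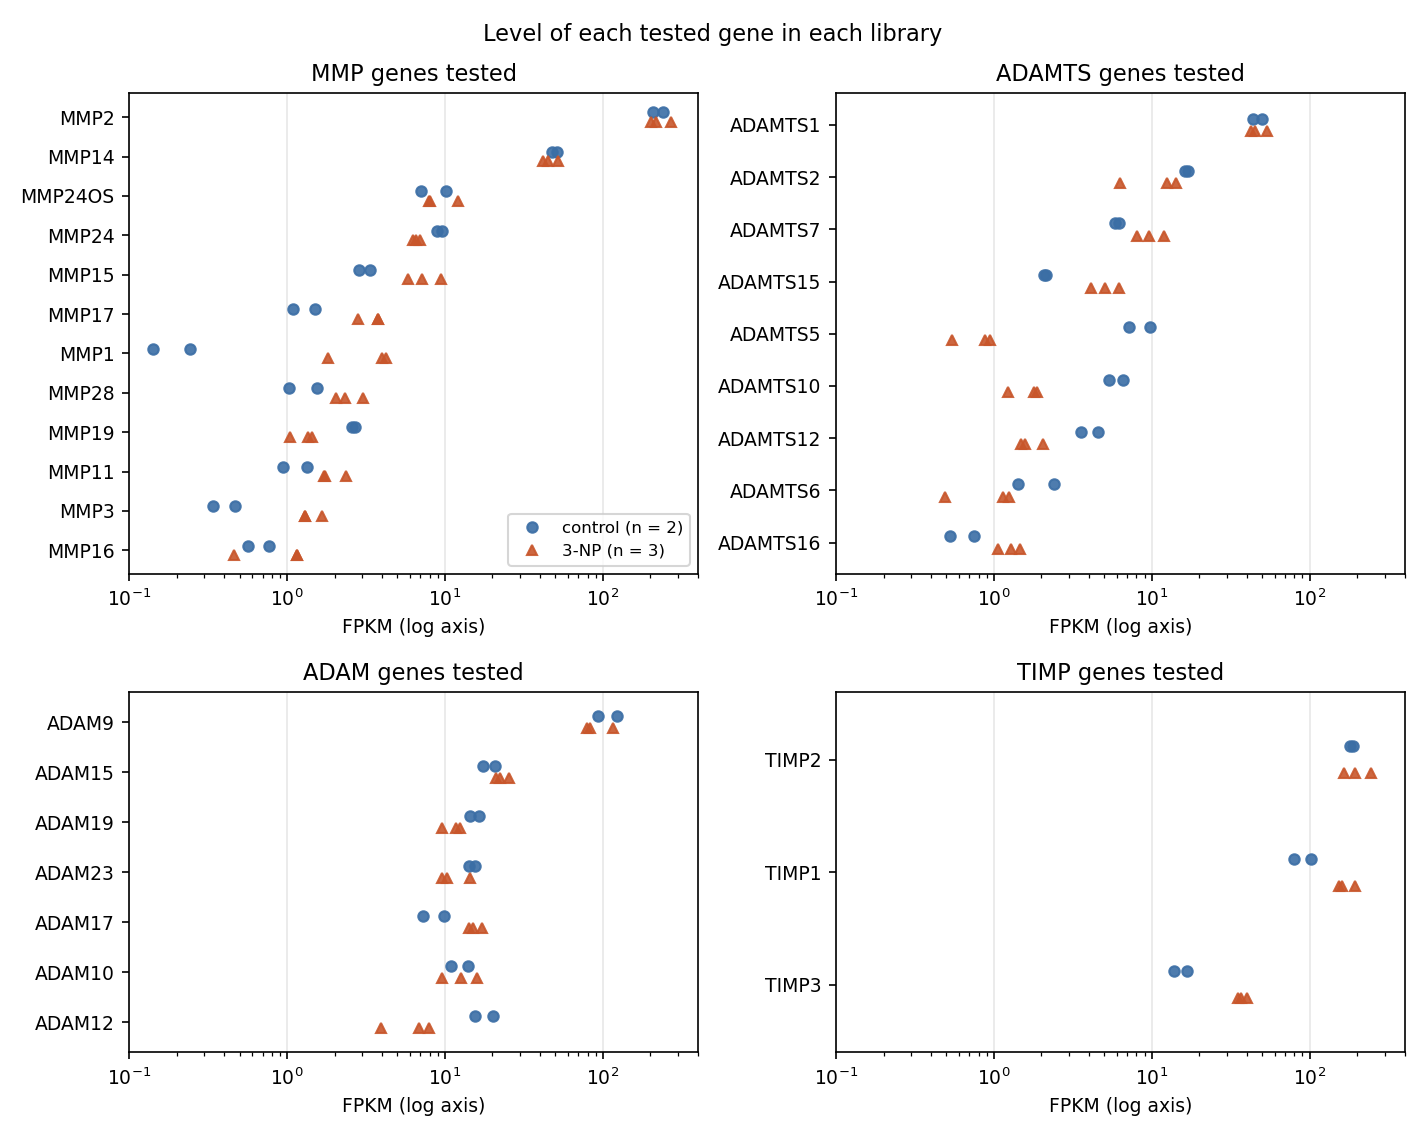
Level in FPKM (log axis) of each of the 31 genes tested, 1 panel per family, with circles for the 2 control libraries and triangles for the 3 3-NP libraries. MMP2 and TIMP2 overlap between groups near 200 FPKM, whereas ADAMTS5 drops from 7.14 and 9.75 FPKM in control to under 1 FPKM in 3-NP libraries.

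**Figure D2:**
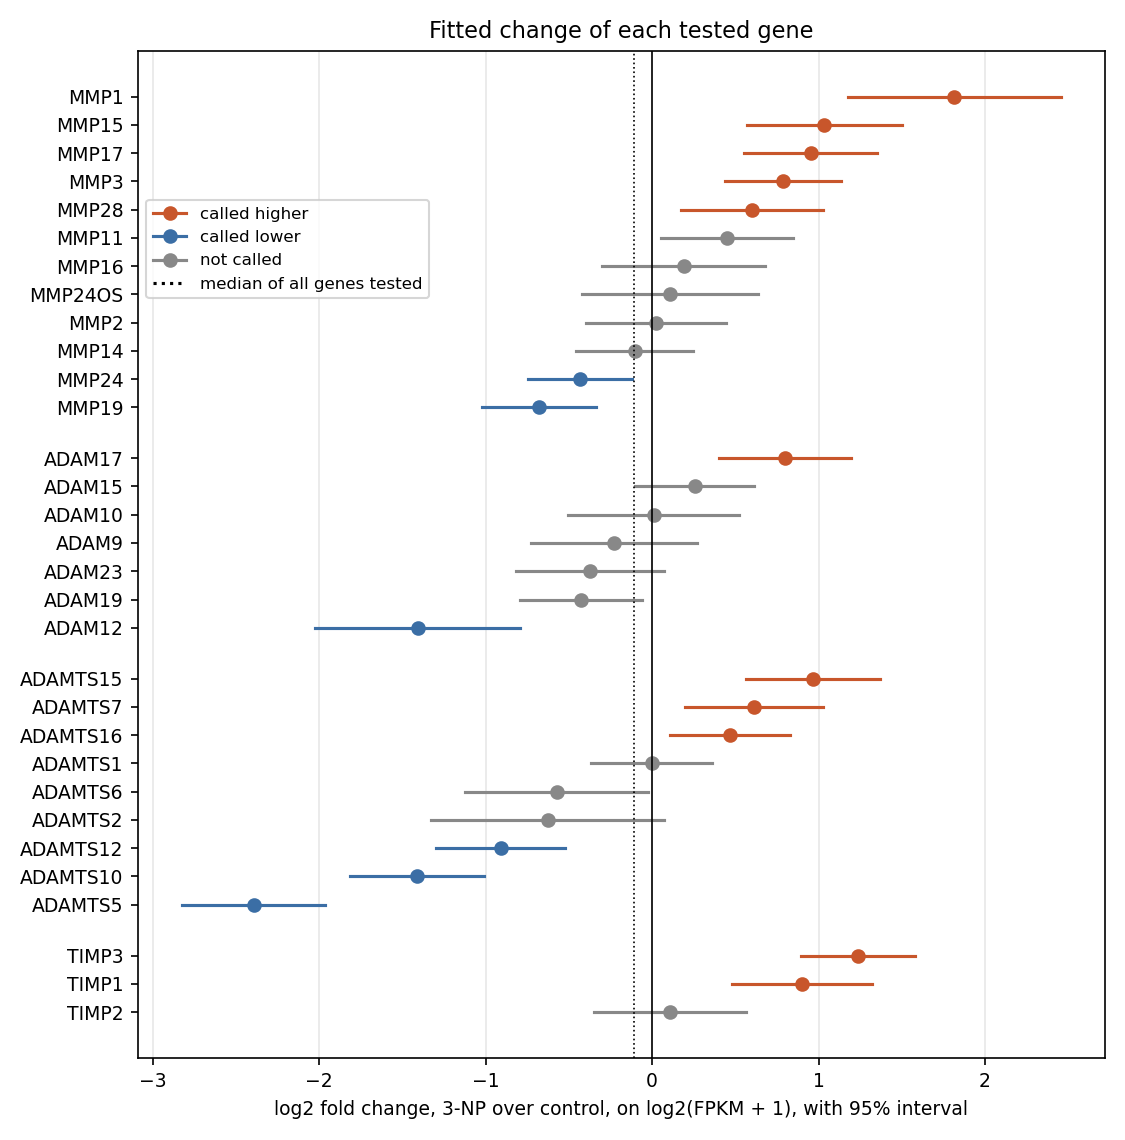
Fitted log2 fold change of each gene tested (3-NP over control, on log2(FPKM + 1)) with its 95% interval, coloured by call, and the median of all genes tested as a dotted line at -0.11. The range runs from -2.39 for ADAMTS5 to 1.82 for MMP1, and TIMP1 and TIMP3 lie to the right of 0.

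The collagenases and stromelysins MMP1, MMP3, MMP10 and MMP13 stand in 1 cluster on chromosome 11, and their RNA was scarce in control cells. MMP1, the interstitial collagenase (chromosome 11, positions 102789920 to 102798160, GRCh38, minus strand), had 0.244 and 0.142 FPKM in the controls, from 9 and 5 reads. In 3-NP libraries it had 1.83, 3.97 and 4.26 FPKM, from 68, 146 and 158 reads. Every 3-NP library lay above both controls, and 3-NP replicate 1 was the lowest of the 3. The mean rose from 0.193 ± 0.072 to 3.35 ± 1.33 FPKM, a ratio of 17.4, and the fitted log2 fold change was 1.82 ± 0.27 (SE, limma adjusted p = 0.00265). This fold is on log2(FPKM + 1) and understates changes of low genes. MMP1 kept its call in all 13 alternatives that tested it, and it was not tested under the stricter filter.

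MMP3, a stromelysin that cuts proteoglycans and laminin and activates collagenase precursors (positions 102835801 to 102843803), had 0.338 and 0.465 FPKM in control and 1.29, 1.31 and 1.66 FPKM in 3-NP libraries. The groups were apart, at 13 and 17 against 50, 50 and 64 reads. The ratio of means was 3.53 and the log2 fold change 0.79 ± 0.15 (SE, limma adjusted p = 0.00606). Its adjusted p ranged from 0.00365 to 0.0858 over 13 alternatives, with no call without control replicate 1 (0.0858) or control replicate 2 (0.0527).

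MMP10, the stromelysin beside MMP1 (positions 102770503 to 102780628), did not reach the filter. It had 0 reads in both controls and 7, 10 and 16 reads in 3-NP libraries. Taking 3 reads per control library as the most that a count of 0 allows, its mean 3-NP FPKM was 3.57-fold this limit. The limit covers counting error of the controls only, and the 3-NP reads enter as observed. MMP13, another collagenase, had 0 and 0 against 2, 3 and 3 reads, which is at or under 3 reads in every library. MMP12, the macrophage elastase, had 7 and 10 against 9, 17 and 11 reads, and the groups overlapped. MMP7, matrilysin, had 1 read in control replicate 1 and 0 in the other 4 libraries. Among the analysed genes of the cluster the reads thus separated the groups at MMP10, MMP1 and MMP3 but not at MMP7 and MMP12. At MMP13 they did so only within the range of 3 reads. MMP8, MMP20 and MMP27 of the cluster were not analysed.

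**Figure D3:**
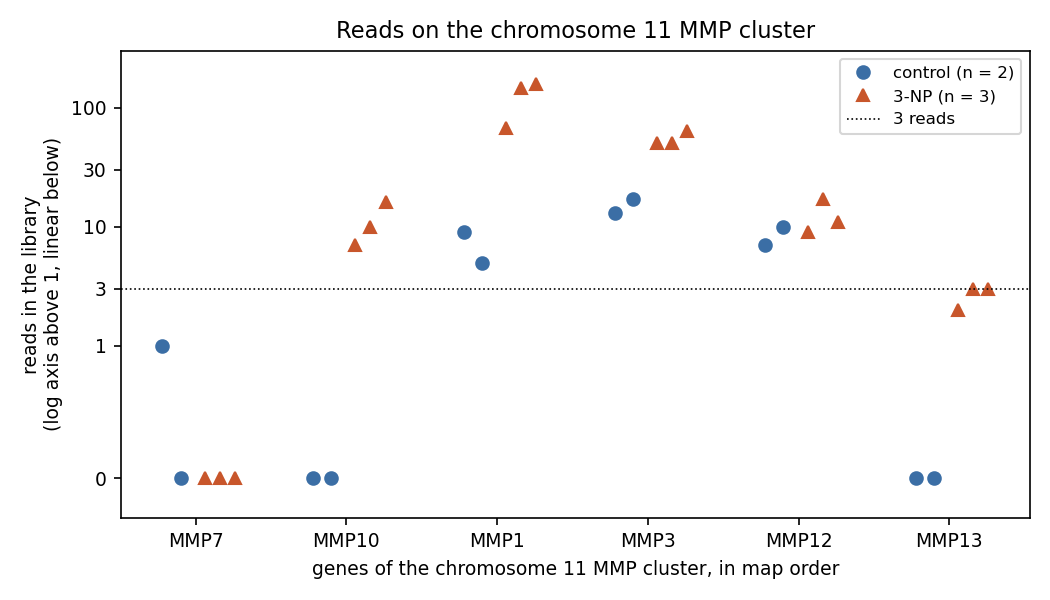
Reads per library on the 6 analysed MMP genes of the chromosome 11 cluster, in map order (MMP8, MMP20 and MMP27 were not analysed). The axis is logarithmic above 1 and linear below. Circles mark control and triangles 3-NP libraries, and a dotted line marks 3 reads. MMP1 has 5 and 9 reads in control and 68 to 158 in 3-NP libraries and MMP10 has 0 and then 7 to 16, while MMP7 is at 0 or 1 and MMP12 overlaps.

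The 250 bases before the start of MMP10 and of MMP7 are shown because these genes of the cluster differ in reads and hold the same kind of promoter letters. Both are from RefSeq (GRCh38.p14, minus strand, chr11:102780629-102780878 for MMP10 and chr11:102530748-102530997 for MMP7), written 5′ to 3′ and ending at the base before the start. Capitals mark the AP-1 site TGANTCA, bound by FOS and JUN proteins, the TATA box TATAAA and the ETS-type site AGGAAG, each searched on both strands.
MMP10: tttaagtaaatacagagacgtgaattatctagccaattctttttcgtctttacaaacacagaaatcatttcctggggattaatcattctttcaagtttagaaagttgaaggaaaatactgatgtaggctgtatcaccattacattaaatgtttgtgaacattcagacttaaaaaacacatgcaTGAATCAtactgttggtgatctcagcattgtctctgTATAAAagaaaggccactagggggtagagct
MMP7: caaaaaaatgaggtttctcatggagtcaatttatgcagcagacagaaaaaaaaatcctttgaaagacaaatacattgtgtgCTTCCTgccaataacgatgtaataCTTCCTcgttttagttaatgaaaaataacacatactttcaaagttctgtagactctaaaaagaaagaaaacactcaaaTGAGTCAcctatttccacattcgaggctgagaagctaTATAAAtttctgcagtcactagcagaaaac
In both genes the AP-1 letters lie at -67 to -61 from the start, as TGAATCA in MMP10 and TGAGTCA in MMP7. The TATA box lies at -31 to -26 in MMP10 and at -30 to -25 in MMP7, and only MMP7 of these holds ETS-type letters, at -169 to -164 and -145 to -140, with no shared bases between motifs. The AP-1 letters occur in 6.57% of all 35116 RefSeq promoters of the same length, the ETS-type letters in 28.7% and the TATA box in 10.7%. Of the 41 promoters of family members among them, 4 hold AP-1 letters, 9 ETS-type letters and 7 the TATA box. Of these 4, those of MMP10, MMP20 and ADAMTS12 hold TGAATCA and that of MMP7 TGAGTCA. The 41 promoters cover 9 of the 17 genes called, and MMP1, MMP3 and ADAMTS5 are not among them. Of the 5 promoters of members called higher 0 hold AP-1 letters. Of the 5 promoters of members called lower 1 does, that of ADAMTS12, beside 4.41% of the 12738 promoters of genes tested. ETS-type letters stand in 2 of the 5 called higher, 2 of the 5 called lower and 1 of 9 not called, beside 27.6%. The TATA box stands in 0, 1 and 0 of these, beside 5.71%. ADAMTS10 enters the promoters called lower more than once. The AP-1 letters of MMP10 and MMP7 stand at the same place in different forms, and a match is not a bound site. The part of these letters in the reads was not tested.

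The gelatinase MMP2, its activator MMP14 and TIMP2 were among the more abundant of the set and none was called. MMP2, which cuts basement membrane and denatured collagen, had 209 and 241 FPKM in control and 269, 201 and 218 FPKM in 3-NP libraries. The libraries interleaved, and the log2 fold change was 0.02, with a 95% interval of -0.40 to 0.44 (limma adjusted p = 0.933); its sign turned under quantile normalization and equal totals. MMP14, a membrane-anchored MMP that cleaves the MMP2 precursor, had 48.0 and 51.1 against 44.9, 41.5 and 52.1 FPKM. Its interval was -0.46 to 0.25 around -0.11, a sign that turned under median-of-ratios scaling and with the length trend removed. TIMP2, which bridges MMP14 and the MMP2 precursor at the cell surface, had 189 and 179 against 245, 165 and 193 FPKM, with 3-NP replicate 1 the highest and 3-NP replicate 2 the lowest. Its log2 fold change was 0.11 (95% interval -0.35 to 0.56), negative under quantile normalization. The FPKM ratio of TIMP2 to MMP14 was 3.94 and 3.51 in control and 5.46, 3.97 and 3.71 in 3-NP libraries. MMP9, the other gelatinase, had 0 reads in both controls and 7, 4 and 0 reads in 3-NP libraries, so the groups overlapped at 0.

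Among the other membrane-bound MMPs, MMP15 and MMP17 rose and MMP24 fell. MMP15, a transmembrane relative of MMP14 (chromosome 16, positions 58025566 to 58046901), had 2.85 and 3.35 FPKM in control and 9.47, 5.85 and 7.20 FPKM in 3-NP libraries. All 3-NP values exceeded the controls, with 3-NP replicate 1 the highest. The log2 fold change was 1.03 ± 0.20 (SE, limma adjusted p = 0.0064), and over 14 alternatives the adjusted p ranged from 0.0025 to 0.0559, the highest being without control replicate 1. MMP17, which is held by a lipid anchor, had 1.09 and 1.51 against 3.76, 2.83 and 3.79 FPKM. The groups were apart, the log2 fold change was 0.95 ± 0.17 (SE, limma adjusted p = 0.00483), and the adjusted p ranged from 0.00225 to 0.0553, again highest without control replicate 1.

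MMP24, a transmembrane MMP best known from neural tissue, had 8.89 and 9.64 FPKM in control and 6.59, 6.27 and 6.97 FPKM in 3-NP libraries. The 3-NP values were all lower, by a log2 fold change of -0.43 ± 0.13 (SE, limma adjusted p = 0.0355). This call was lost in 9 of 14 alternatives, with an adjusted p of 0.0154 to 0.204. Lost settings included the omission of either control (0.132 without replicate 1 and 0.204 without replicate 2) and of 3-NP replicate 2 (0.105) or replicate 3 (0.0594). MMP24OS had 7.03 and 10.1 against 12.1, 8.03 and 7.91 FPKM and was not called (limma adjusted p = 0.729). The genes share 799 exonic bases on opposite strands, 18.1% of the exons of MMP24, and whether the reads were counted by strand is not given in the sources used here. MMP16 had 0.766 and 0.565 against 1.16, 1.16 and 0.465 FPKM and overlapped between groups (limma adjusted p = 0.492). MMP25, the other lipid-anchored MMP, had 0 and 2 reads in control and 4, 8 and 4 reads in 3-NP libraries, and 35.2% of its exons are shared with an antisense gene.

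The remaining secreted MMPs moved in both directions. MMP28, an MMP of skin and testis, had 1.03 and 1.55 FPKM in control and 2.04, 2.34 and 3.01 FPKM in 3-NP libraries, which were all higher. The log2 fold change was 0.60 ± 0.18 (SE, limma adjusted p = 0.0344), but 6 of 14 alternatives lost the call (0.0112 to 0.26). These included the omission of control replicate 1 (0.26), control replicate 2 (0.0703), 3-NP replicate 2 (0.058) or 3-NP replicate 3 (0.0633). MMP19, a secreted MMP of widely spread tissues, had 2.58 and 2.69 against 1.04, 1.35 and 1.43 FPKM. Every 3-NP library was below both controls, with a log2 fold change of -0.68 ± 0.15 (SE, limma adjusted p = 0.00983). Over 14 alternatives the adjusted p was 0.00479 to 0.0917, with no call without control replicate 1 (0.0856) or control replicate 2 (0.0917). MMP19 shares 17.4% of its exonic bases with TMEM198B on the other strand. MMP11, a stromelysin-like MMP of stromal cells that is activated inside the cell, had 0.948 and 1.34 against 2.36, 1.73 and 1.71 FPKM. The libraries did not overlap, yet the log2 fold change of 0.45 ± 0.17 missed the threshold (SE, limma adjusted p = 0.0683, with 0.0271 to 0.396 over 13 alternatives). MMP23B, a short membrane MMP with a near-identical copy in the genome, had 0 to 6 reads in every library.

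TIMP1 and TIMP3 rose and TIMP2 did not pass the test. TIMP3, the matrix-bound inhibitor (chromosome 22, positions 32801701 to 32863043), had 16.6 and 13.9 FPKM in control and 34.9, 36.8 and 40.1 FPKM in 3-NP libraries. The lowest 3-NP library stood well above the highest control. Its mean rose from 15.3 ± 1.95 to 37.3 ± 2.60 FPKM, a log2 fold change of 1.24 ± 0.15 (SE, limma adjusted p = 0.00114), and it was called in all 14 alternatives. TIMP1, a soluble inhibitor of most secreted MMPs (chromosome X, positions 47582313 to 47586789), had 79.4 and 102 against 154, 160 and 194 FPKM. The groups were apart and 3-NP replicate 3 was the highest. The rise came to a log2 fold change of 0.90 ± 0.18 (SE, limma adjusted p = 0.00737), with 0.00226 to 0.0766 over 14 alternatives, the highest without control replicate 1. TIMP4 had 7 and 8 reads in control and 2, 11 and 20 reads in 3-NP libraries, which overlapped.

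The makeup of the inhibitors and the balance of proteases to inhibitors were also compared within each library, where library scaling cancels. The FPKM ratio of TIMP1 to TIMP2 was 0.420 and 0.569 in control and 0.630, 0.970 and 1.003 in 3-NP libraries. TIMP2 made up 66.3% and 60.7% of the TIMP sum in control and 56.4%, 45.5% and 45.2% in 3-NP libraries. The sum of MMP genes divided by the sum of TIMP genes was 0.967 and 1.06 in control and 0.793, 0.746 and 0.706 in 3-NP libraries. In each of these ratios the groups did not overlap. The MMP sums themselves did, at 276 and 313 against 344, 270 and 302 FPKM, whereas the TIMP sums did not, at 285 and 295 against 434, 362 and 428 FPKM. These sums are descriptions of chosen genes, carry no test, and concern RNA.

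**Figure D4:**
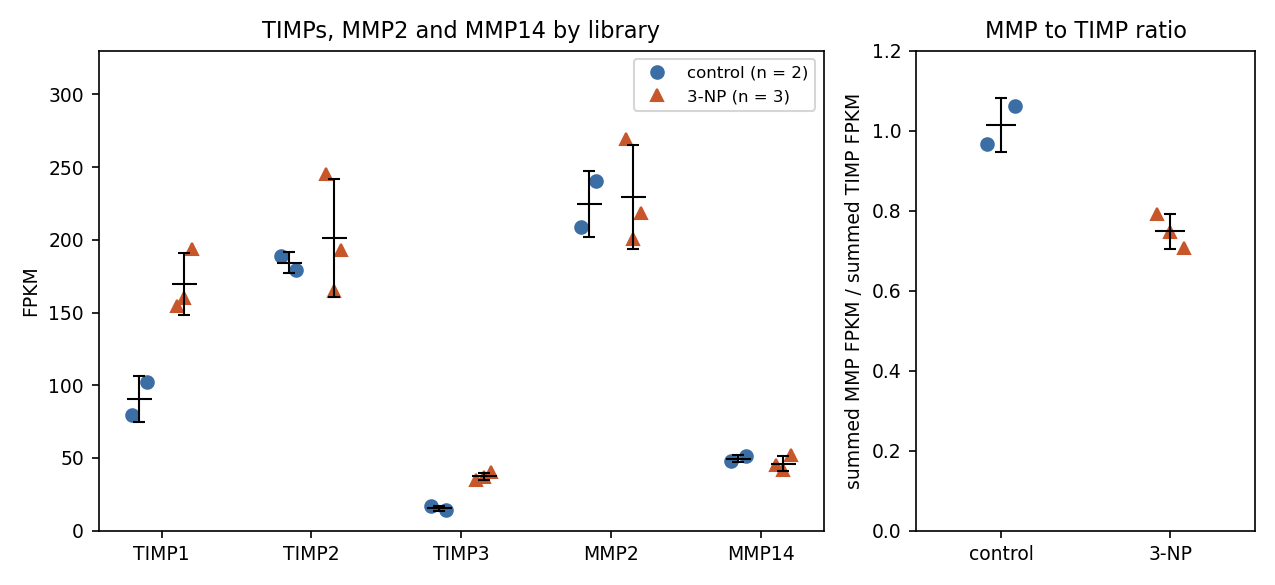
Left, FPKM of TIMP1, TIMP2, TIMP3, MMP2 and MMP14 in each library, and right, summed MMP over summed TIMP FPKM, with circles for control and triangles for 3-NP libraries and bars for mean and SD. TIMP1 and TIMP3 separate the groups, MMP2, MMP14 and TIMP2 do not, and the ratio is 0.967 and 1.06 in control and 0.706 to 0.793 in 3-NP libraries.

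Of the ADAM sheddases, ADAM17 rose and ADAM12 fell. ADAM17, which releases tumour necrosis factor and ligands of the EGF receptor (chromosome 2, positions 9488486 to 9556732), had 9.88 and 7.24 FPKM in control and 15.1, 17.2 and 14.3 FPKM in 3-NP libraries. Each 3-NP value was above both controls. The fitted log2 fold change was 0.80 ± 0.17 (SE, limma adjusted p = 0.00912). Over 14 alternatives the adjusted p was 0.00121 to 0.0845, the highest without control replicate 2. ADAM17 shares 12.3% of its exonic bases with IAH1 on the opposite strand. ADAM10, the sheddase of Notch receptors and cadherins, had 14.1 and 10.9 against 12.7, 15.9 and 9.60 FPKM. Its groups overlapped and its log2 fold change was 0.01 (95% interval -0.50 to 0.52), with a sign that turned under equal totals. The FPKM ratio of ADAM17 to ADAM10 was 0.702 and 0.664 in control and 1.19, 1.08 and 1.49 in 3-NP libraries. ADAM10 thus had the higher FPKM in each control and ADAM17 in each 3-NP library. That order rests on exon-union lengths of 16168 bases for ADAM10 and 10750 for ADAM17. In reads ADAM10 was above ADAM17 in every library, at 3877, 4782 and 2923 against 3066, 3446 and 2890 in 3-NP libraries.

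ADAM12, a protease of mesenchymal cells and placenta that cuts insulin-like growth factor binding proteins (chromosome 10, positions 126012381 to 126388455), had 20.2 and 15.4 FPKM in control and 3.95, 7.93 and 6.84 FPKM in 3-NP libraries. All 3-NP values were lower and 3-NP replicate 1 was the lowest. The mean fell from 17.8 ± 3.36 to 6.24 ± 2.06 FPKM, 2.85 times lower, with a log2 fold change of -1.41 ± 0.26 (SE, limma adjusted p = 0.00575). Its adjusted p was 0.000346 to 0.0504 over 14 alternatives, the highest without control replicate 1.

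ADAM9, ADAM15, ADAM19 and ADAM23 were not called. ADAM9, a broadly expressed sheddase, was the most abundant ADAM, with 123 and 93.8 against 79.5, 115 and 83.2 FPKM. Its groups overlapped, with a 95% interval of -0.73 to 0.27 for the log2 fold change. ADAM15, a sheddase with an integrin-binding motif, had 17.4 and 20.8 against 21.2, 22.2 and 25.5 FPKM, and its closest values were 20.8 in control and 21.2 in 3-NP libraries (limma adjusted p = 0.215). ADAM19, which sheds neuregulins, had 16.4 and 14.5 against 9.62, 12.4 and 11.7 FPKM. Its 3-NP values were all lower, but the log2 fold change of -0.43 ± 0.16 missed the threshold (SE, limma adjusted p = 0.0636). It was called with equal totals at 0.0326, within a range of 0.0326 to 0.314 over 14 alternatives. ADAM23, which lacks protease activity and binds the neural protein LGI1, had 15.5 and 14.2 against 14.4, 10.3 and 9.56 FPKM. Here 3-NP replicate 1 lay between the controls (limma adjusted p = 0.153), and without it the adjusted p was 0.0195, the lowest of a range up to 0.44.

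The proteoglycan-cutting ADAMTS genes held the largest fall of the set, next to a neighbour that was not called. ADAMTS5, the main enzyme that cuts aggrecan in mouse cartilage and a versican-cutting enzyme elsewhere (chromosome 21, positions 26917912 to 26966513), had 9.75 and 7.14 FPKM in control. It had 0.947, 0.882 and 0.539 FPKM in 3-NP libraries. That is 1655 and 1153 reads in control against 162, 149 and 92 reads, and the groups were far apart. The mean fell from 8.44 ± 1.84 to 0.790 ± 0.219 FPKM, 10.7 times lower, with a log2 fold change of -2.39 ± 0.18 (SE, limma adjusted p = 0.000318). It was called in all 12 alternatives that tested it. Without either control it was not tested, because fewer than 2 libraries then reached 1 FPKM. ADAMTS1, which lies beside it (positions 26835747 to 26845409) and also cuts versican and aggrecan, had 50.2 and 43.9 against 53.3, 45.0 and 42.8 FPKM. Its groups overlapped and its interval was -0.37 to 0.36, with an estimate at 0.00 whose sign turned under median-of-ratios scaling, the replicate block and removal of the length trend. The FPKM ratio of ADAMTS1 to ADAMTS5 was 5.15 and 6.15 in control and 56.3, 51.0 and 79.3 in 3-NP libraries.

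ADAMTS15, another enzyme of this group (chromosome 11, positions 130448974 to 130476641), rose. It had 2.15 and 2.07 FPKM in control and 4.14, 5.08 and 6.16 FPKM in 3-NP libraries, which all exceeded the controls. The log2 fold change of 0.97 ± 0.17 passed the test (SE, limma adjusted p = 0.00487), and it was called in all 14 alternatives. The ratio of ADAMTS15 to ADAMTS5 was 0.221 and 0.289 in control and 4.37, 5.76 and 11.4 in 3-NP libraries, so their order was opposite in the groups. The others of this group were low. ADAMTS9 had 90 and 94 reads in control and 48, 57 and 53 in 3-NP libraries and did not reach the filter, although its groups were apart. ADAMTS8, next to ADAMTS15 on chromosome 11, had 9 and 1 against 3, 5 and 26 reads. ADAMTS4 and ADAMTS20 had at most 4 reads in any library.

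ADAMTS7 and ADAMTS12, close relatives that cut cartilage oligomeric matrix protein, moved in opposite directions. ADAMTS7 had 5.82 and 6.24 FPKM in control and 11.9, 8.08 and 9.58 FPKM in 3-NP libraries, all of them higher. Its log2 fold change was 0.61 ± 0.18 (SE, limma adjusted p = 0.0284). The adjusted p was 0.0114 to 0.155 over 14 alternatives, and 4 of them lost the call, among them the omission of control replicate 1 (0.155) or control replicate 2 (0.104). ADAMTS12 (chromosome 5, positions 33523535 to 33892192) had 4.57 and 3.58 against 1.48, 2.06 and 1.56 FPKM. All 3-NP values were lower, with a log2 fold change of -0.91 ± 0.17 (SE, limma adjusted p = 0.00521). Its adjusted p was 0.00273 to 0.0656 over 14 alternatives, the highest without control replicate 1.

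ADAMTS10 and ADAMTS6, a pair linked to fibrillin microfibrils, both had lower values, and ADAMTS10 passed the test. ADAMTS10 (chromosome 19, positions 8580242 to 8610735) had 5.40 and 6.56 FPKM in control and 1.23, 1.80 and 1.87 FPKM in 3-NP libraries. The groups were far apart, with a log2 fold change of -1.41 ± 0.17 (SE, limma adjusted p = 0.00126), and it was called in all 14 alternatives. ADAMTS6 had 2.39 and 1.42 against 1.14, 1.24 and 0.490 FPKM, without overlap, and its log2 fold change was -0.57 ± 0.23 (SE, limma adjusted p = 0.0883). FBN1, the fibrillin gene that ADAMTS10 is linked to, is described with the matrix substrates.

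The procollagen-trimming enzymes ADAMTS2, ADAMTS3 and ADAMTS14 did not share a pattern. ADAMTS2, which removes the amino-terminal propeptide of fibrillar collagens, had 17.1 and 16.3 FPKM in control and 6.32, 12.5 and 14.2 FPKM in 3-NP libraries. The 3-NP values were lower but widely spread, and 3-NP replicate 1 was far below the others. Its log2 fold change was -0.63 ± 0.30 (SE, limma adjusted p = 0.131). The adjusted p was 0.012 to 0.332 over 14 alternatives, with a call under the replicate block (0.012) and without 3-NP replicate 3 (0.0329). ADAMTS14 had 8 and 3 reads in control and 52, 47 and 30 reads in 3-NP libraries, below the filter, with no overlap. ADAMTS3 had 58 and 21 against 50, 64 and 73 reads and overlapped. ADAMTS16, a protease of kidney and gonads, had 0.746 and 0.526 FPKM in control and 1.06, 1.45 and 1.28 FPKM in 3-NP libraries, all higher. Its log2 fold change was 0.47 ± 0.15 (SE, limma adjusted p = 0.0455), and 8 of 13 alternatives lost the call (0.0136 to 0.308). These included the omission of control replicate 1 (0.158), control replicate 2 (0.308), 3-NP replicate 2 (0.0975) or 3-NP replicate 3 (0.0644).

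Of the 59 genes, 28 did not pass the filter. ADAM18 had 0 reads in every library, and ADAM2, ADAM20 and ADAM29, all known from testis, had at most 6 reads in any library. ADAM21, a neighbour of ADAM20 on chromosome 14, had 12 and 12 reads in control and 3, 2 and 1 reads in 3-NP libraries. How reads that match more than 1 gene were counted is not given in the sources used here. ADAM8, known from leukocytes, had 7 to 11 reads in every library, and ADAM28 and ADAM32 overlapped between groups. ADAM11 and ADAM22, relatives of ADAM23 without protease activity, had 16 and 24 against 53, 38 and 33 reads and 94 and 76 against 170, 159 and 100 reads, both without overlap. ADAMTS13, which cuts von Willebrand factor, was the highest of those not tested, at 0.629 to 0.729 FPKM in control and 0.385 to 0.714 FPKM in 3-NP libraries, and overlapped. ADAMTS17, ADAMTS18 and ADAMTS19 had at most 8 reads in any library.

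The genes called lower were longer in exons than those called higher, as in the whole table. The median exon-union length was 4419 bases for the 11 members called higher and 7380 bases for the 6 called lower, beside 3995 and 5175 bases for all genes tested. With a trend with gene length removed from each library, 12 members were called higher and 5 lower. The part of length in the calls was not tested further.

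Genes that act with these proteases were read from lists, which were chosen with earlier results known. Of all genes tested, 15.5% were called higher and 25.2% lower, with a median log2 fold change of -0.11. Of 11 tested inhibitors and surface partners, 1 was called higher and 1 lower (9.09% each), with a median of 0.18. These counts were 3 and 0 with median-of-ratios scaling, 4 and 1 with the length trend removed and 1 and 2 without 3-NP replicate 1, and no gene was called lower without the low-value filter. TFPI2, a secreted inhibitor of plasmin and of several MMPs, had 0.821 and 0.989 FPKM in control and 12.7, 46.7 and 52.0 FPKM in 3-NP libraries, with 3-NP replicate 1 the lowest of the 3, and passed the filter through those 3 alone. Its log2 fold change was 4.10 ± 0.53 (SE, limma adjusted p = 0.00165). THBS1, a matrix protein that binds several MMPs, was called lower (log2 fold change -0.65, limma adjusted p = 0.0306). That call was lost in 6 alternatives (0.0129 to 0.218), among them the omission of control replicate 1 (0.218), control replicate 2 (0.0633), 3-NP replicate 2 (0.0838) or 3-NP replicate 3 (0.0744). RECK, the membrane-anchored MMP inhibitor, was not called (log2 fold change 0.18, limma adjusted p = 0.444).

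Of the 9 tested proprotein convertases and genes of the plasmin system, which turn protease precursors into active enzymes, 3 were called higher and 3 lower (33.3% each), with a median of 0.21. The count called lower was 1 with quantile normalization, no filter, median-of-ratios scaling, the replicate block, the length trend removed or 3-NP replicate 2 left out. SERPINB2, an inhibitor of plasminogen activators, rose from 0.889 ± 0.242 to 9.39 ± 2.41 FPKM (limma adjusted p = 0.00054). PLAUR, the urokinase receptor, rose from 13.4 ± 0.256 to 30.4 ± 4.41 FPKM (0.00214), while urokinase itself, PLAU, fell from 18.6 ± 1.60 to 9.63 ± 2.03 FPKM (0.00877). PLAT, the tissue activator of plasminogen, rose from 3.93 ± 0.198 to 7.72 ± 1.12 FPKM (0.00612). PLAT lost its call without control replicate 1 (0.0568, of a range from 0.00269) and PLAU without control replicate 2 (0.0677, of a range from 0.00131). FURIN, which cuts the precursors of membrane-type MMPs and ADAMs, was not called (log2 fold change 0.10, limma adjusted p = 0.65). PCSK7 and MBTPS1 were the other genes called lower, and neither was called without control replicate 1 (0.154 and 0.236) or control replicate 2 (0.179 and 0.136), which lie within ranges of 0.0138 to 0.53 and 0.0213 to 0.294. Without control replicate 1 the list had 2 higher and 1 lower, and without control replicate 2 it had 3 and 0.

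Of the 14 trafficking partners of ADAM10 and ADAM17, 4 (28.6%) were called higher and 1 (7.14%) lower, with a median of 0.01, and with equal totals or without 3-NP replicate 1 the count called lower was 2. Among the tetraspanins that escort ADAM10, TSPAN15 had 1.37 and 1.78 FPKM in control and 5.86, 7.58 and 8.11 FPKM in 3-NP libraries (limma adjusted p = 0.000788). TSPAN5 rose from 17.3 ± 0.538 to 34.0 ± 1.70 FPKM (limma adjusted p = 0.00209) and TSPAN33 from 1.78 ± 0.064 to 4.24 ± 0.446 FPKM (0.00302). TSPAN14, TSPAN17 and TSPAN10 of the same group were not called (0.305, 0.0928 and 0.61). DLG1, a scaffold that binds ADAM10, fell from 24.4 ± 5.14 to 9.05 ± 2.49 FPKM (0.00485). RHBDF1 and RHBDF2, which carry ADAM17 to the cell surface, were not called (0.214 and 0.723), and FRMD8, which stabilises that complex, was the 1 other gene called higher. FRMD8 lost its call without control replicate 1 (0.212) or control replicate 2 (0.0613), of a range from 0.014 to 0.212, and the list then had 3 higher and 1 lower in either case.

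The shed ligands and surface substrates held the largest rises of the lists tied to ADAM sheddases, with 9 of 20 tested genes (45.0%) called higher and 3 (15%) lower and a median of 0.41. Of the 9, TNFRSF1B, NOTCH3 and CXCL16 passed the filter through 3-NP libraries alone, and with no filter 7 genes were called higher and 1 lower. SDC4, a surface proteoglycan that is shed, had 38.1 and 39.1 FPKM in control and 504, 611 and 694 FPKM in 3-NP libraries (limma adjusted p = 8.33e-05). HBEGF, a ligand of the EGF receptor released by ADAM17, had 5.50 and 5.67 against 48.4, 65.5 and 73.6 FPKM (0.000179). AREG, another such ligand, had 1.003 and 0.918 against 16.4, 33.3 and 43.6 FPKM (0.000516), and JAG1, a Notch ligand, had 2.30 and 1.99 against 11.7, 9.07 and 10.2 FPKM (0.000393). In each of these 4 the groups were far apart. TGFA, TNFRSF1B, NOTCH3, MICA and CXCL16 were also called higher, and BTC, NRG1 and CDH2 lower, so of the EGF receptor ligands HBEGF, AREG and TGFA were called higher and BTC lower. TGFA and TNFRSF1B kept their calls without either control, while NOTCH3, MICA, CXCL16, BTC, NRG1 and CDH2 had adjusted p-values of 0.0819 to 0.209 without control replicate 1, against 0.00682 to 0.0254 with all libraries. Without control replicate 1 the list had 6 higher and 0 lower, and without control replicate 2 it had 6 and 1.

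Of 21 tested matrix substrates, 7 (33.3%) were called lower and 2 (9.52%) higher, with a median of -0.43, and over all genes too more were called lower than higher. The count called lower was 2 with no filter, 12 with equal totals and 6 to 10 under the other alternatives that kept all libraries. COL1A1, a collagen cut by the collagenases, had 606 and 619 FPKM in control and 91.6, 137 and 173 FPKM in 3-NP libraries, far below the controls (log2 fold change -2.23 ± 0.26 SE, limma adjusted p = 0.0011). FBN1, fibrillin, had 138 and 89.4 against 39.1, 63.1 and 50.8 FPKM (0.0114). COL4A1, a basement membrane collagen, COL4A2, COL1A2, VCAN, the versican cut by ADAMTS enzymes, and SPARC were called lower as well. SPP1, osteopontin, a secreted protein cut by MMPs, rose from 17.7 ± 1.27 to 39.4 ± 4.60 FPKM (0.00192), and NID2 was the other rise. COL1A1 and SPP1 kept their calls under every alternative run, while the other 7 genes called had adjusted p-values of 0.0568 to 0.129 without control replicate 1, against 0.00788 to 0.0309 with all libraries. Without control replicate 1 the list had 1 higher and 1 lower, and without control replicate 2 it had 1 and 3. COL1A1, COL1A2 and COL3A1 are also stromal markers, so this list and that marker sum share genes.

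Of 23 tested transcription factors known from MMP promoters, 13 (56.5%) were called higher and 2 (8.70%) lower, with a median of 0.86. Of the 13, FOS, FOSB and SNAI1 passed the filter through 3-NP libraries alone, and with no filter 10 genes were called higher and 1 lower. FOS, which forms AP-1 with JUN proteins, had 0.379 and 0.346 FPKM in control and 11.5, 9.64 and 9.86 FPKM in 3-NP libraries (limma adjusted p = 8.33e-05). ATF3 had 2.39 and 2.50 against 24.1, 29.9 and 34.0 FPKM (0.000167), and JUNB had 32.9 and 37.7 against 208, 169 and 174 FPKM (0.000243). SNAI1, a repressor of epithelial genes, had 0.221 and 0.0998 against 6.28, 7.47 and 9.07 FPKM (0.000179). In all 4 the groups were far apart, and all 4 were called in every alternative. FOSB, another FOS relative, was called higher (0.000295), whereas FOSL1 and FOSL2 were not called (0.141 and 0.939), and NFKB1 and SP1 were called lower, SP1 with 0.168 without control replicate 1 (of a range from 0.0166 to 0.168). Without control replicate 1 the list had 9 higher and 1 lower, and without control replicate 2 it had 10 and 2. Of the 3 tested ADAMTS-like genes limma called 0 at the adjusted threshold, beside 40.8% of all genes tested called in either direction. Of the 8 other metalloproteases tested, TLL1, a procollagen C-proteinase, was called lower, from 1.73 ± 0.535 to 0.269 ± 0.1004 FPKM (limma adjusted p = 0.0032), and was not tested without either control or under the stricter filter. TLL1 passed the filter through the controls alone.

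**Figure D5:**
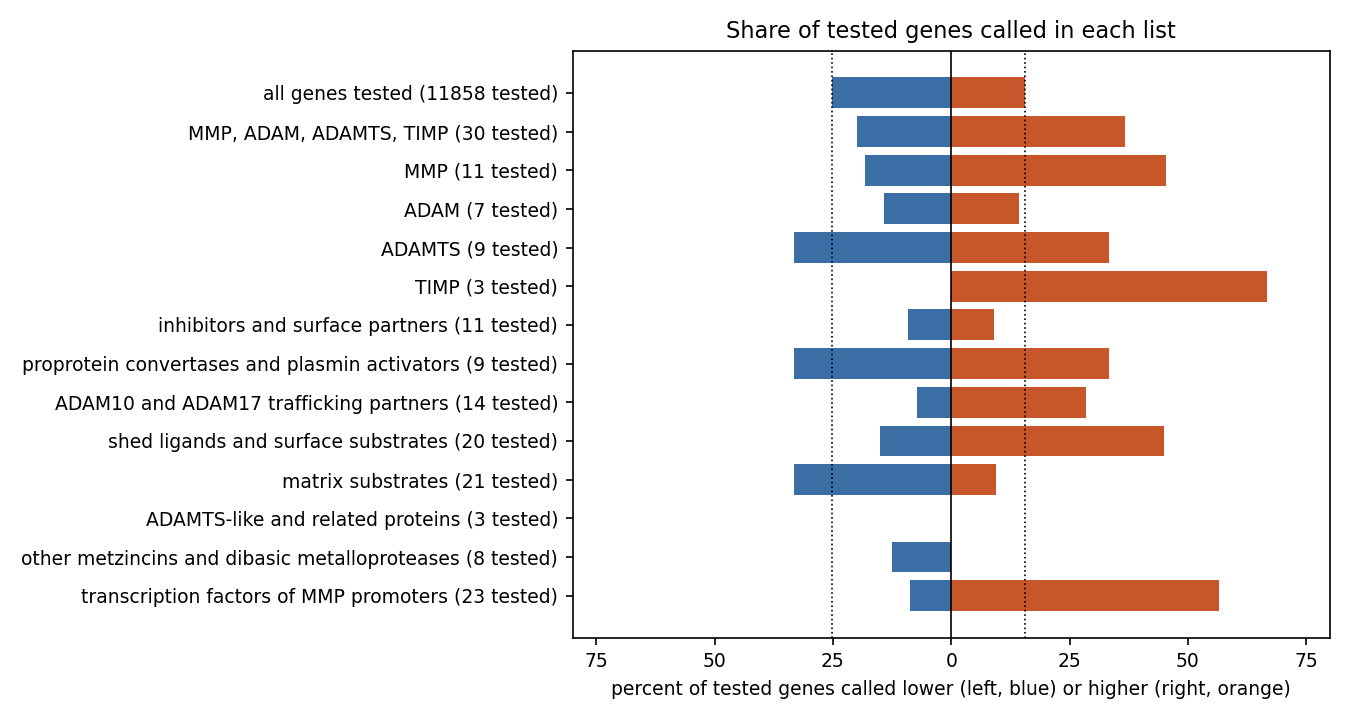
Percent of tested genes called lower (left, blue) and higher (right, orange) for all 11858 genes tested, the 30 tested family members without MMP24OS, each family and each list of related genes, with dotted lines at the shares of all genes, 25.2% and 15.5%. Matrix substrates reach 33.3% lower and 9.52% higher, and transcription factors of MMP promoters 8.70% lower and 56.5% higher.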

How the data were processed

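Messenger RNA of 2 control and 3 3-NP libraries was analysed from 1 table per library. HISAT2 2.1, Trimmomatic 0.39, bcl2fastq 2.17 and the GRCh38 build are listed, per the submitters' processing notes, and the labels' protocols name TRIzol and a stranded kit. The strand setting, annotation and tool of the read counting were not given in the sources used here. The values deposited by the authors carry no unit and were read as FPKM, because value times exon-union length (GENCODE 29) gave whole reads within 0.05 for 94.4% to 94.7% of values under 100 reads. The reads printed were worked out this way.

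A count test had been planned for count files. For FPKM the plan was to fit log2(FPKM + 1) with the trended moderation of limma 3.58.1 in R 4.3.3, group as the only term, over genes that reached 1 FPKM in 2 libraries or more, with Benjamini-Hochberg adjustment over the 11858 genes tested at 0.05. There were 3 residual degrees of freedom. Promoters came from RefSeq (GRCh38.p14). Named genes are members with a mean of 1 FPKM or more or a call, and up to 4 called genes per list with the smallest p. Other list genes and low members were named by role or to complete a small count, after their values were seen. The members and lists were chosen with earlier results of these data known. Alternatives were other scalings, filters, a pseudocount of 0.1, robust moderation, a replicate block, each library left out and, added after the results were seen, removal of a length trend.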

Additional observations from a re-analysis of the deposited data

How the results depend on the processing

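Under the 14 alternatives no called gene of the family changed direction. Of the 17 called, 5 kept the call wherever they were tested (ADAMTS5, ADAMTS10, ADAMTS15, MMP1 and TIMP3), while 12 lost it under at least 1. ADAMTS5 was not tested without either control and passed the filter through controls alone. MMP1 was not tested under the stricter filter and passed the main filter through 3-NP libraries alone. Each library left out in turn gave 4 to 11 members called higher and 1 to 7 lower, the lowest without control replicate 1; with 1 control left, that library is assumed to vary like the 3-NP libraries, and fewer samples enter the fit. The other alternatives gave 8 to 12 higher and 5 to 7 lower. Gained calls were ADAM19 (equal totals), ADAM23 (without 3-NP replicate 1), ADAMTS2 (replicate block and without 3-NP replicate 3) and MMP11 (quantile normalization, median-of-ratios scaling and length trend removed).

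Signs turned for 6 genes that were not called, as log2 fold changes. With equal totals ADAM10 was at -0.0939 and MMP2 at -0.0834. Quantile normalization gave -0.1583 for MMP2 and -0.0638 for TIMP2. Median-of-ratios scaling gave 0.1293 for ADAMTS1 and 0.0278 for MMP14, and with the length trend removed these were 0.1514 and 0.0181. With each library left out ADAM10 ranged from -0.1609 to 0.1828, ADAMTS1 from -0.0989 to 0.0917, MMP2 from -0.0987 to 0.1238, MMP24OS from -0.1276 to 0.3415 and TIMP2 from -0.0436 to 0.2403. The ratio of summed ADAMTS FPKM, 3-NP over control, was 0.7971 with equal totals and 0.9444 with median-of-ratios scaling (0.8594 as reported), and that of TIMP FPKM 1.547 with median-of-ratios scaling (1.4059 as reported). The cause of these shifts was not tested.

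The replicate number as a block gave 9 members higher and 6 lower, over all genes 1737 and 2610, and 0.0603 for ADAMTS1. Same-numbered libraries correlated at 0.1574 for number 1 and -0.3515 for number 2 in their deviations from the group means. With 2 controls these deviations mirror each other, so the values do not settle a pairing, and the labels give the numbers no shared batch. At this depth 3 reads mark the level that a count of 0 allows, and differences of MMP7, MMP13 and other genes near it were not detectable.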
